A study of Mus musculus with 3 samples.

Results

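The proteasome subunit genes were taken as every row of the count table whose symbol is Psm, followed by 1 letter from a to g and a number, which gave 48 of the 21782 genes listed. The data were 3 RNA-seq libraries of polyA-selected RNA from wild-type (WT) mouse embryonic fibroblasts (MEFs), 1 library from each of 3 clones. MEFs are connective tissue cells grown out of the embryo, here at E12.5, and these were asynchronous cultures kept in DMEM with fetal bovine serum. The labels give the genotype as WT with no further allele, strain or agent, and there was 1 condition, so that clones were compared only with each other. The libraries of clones 1, 2 and 3 held 25261357, 22594316 and 24791198 counts. Levels are given as CPM, the counts per 1000000 of the scaled library size, and between genes as CPM per kb of transcript, taking for each gene the one whose coding sequence is longest.

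The proteasome degrades proteins that carry chains of ubiquitin. Its 20S core is a barrel of stacked rings, in which alpha subunits (Psma) form the gate and beta subunits (Psmb) the chamber, and only the subunits Psmb5, Psmb6 and Psmb7 cut peptide bonds. In immune cells and after interferon gamma these are replaced by Psmb8, Psmb9 and Psmb10, giving the immunoproteasome, whose products serve class I antigen presentation. The 19S regulatory particle has ATPases (Psmc) that unfold and thread the substrate and further subunits (Psmd) that bind and cleave ubiquitin, while other activators (Psme) open the core without ATP.

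The starts of Psmb5, Psmb6, Psmb8 and Psmb9 are shown for the comparison of constitutive with immunoproteasome subunits, with that of the activator gene Psme1. They hold letters known from stress or interferon responses, except Psmb9, which holds a CCAAT box alone. Each is the RefSeq window of GRCm38.p6 from 250 bases before to 50 bases after the gene's start, written 5′ to 3′ on the gene's own strand with the match in capitals. Psmb5 (chr14:54617946-54618245, minus strand) and Psmb6 (chr11:70525107-70525406, plus strand) each hold an antioxidant response element (TGACNNNGC). Psmb8 (chr17:34197945-34198244, plus strand) holds a gamma-activated site (TTCNNNGAA), and Psmb9 (chr17:34187281-34187580, minus strand) holds a CCAAT box on the opposite strand. Psme1 (chr14:55578244-55578543, plus strand), for an activator subunit, holds the core of an interferon-stimulated response element on the opposite strand.
Psmb5: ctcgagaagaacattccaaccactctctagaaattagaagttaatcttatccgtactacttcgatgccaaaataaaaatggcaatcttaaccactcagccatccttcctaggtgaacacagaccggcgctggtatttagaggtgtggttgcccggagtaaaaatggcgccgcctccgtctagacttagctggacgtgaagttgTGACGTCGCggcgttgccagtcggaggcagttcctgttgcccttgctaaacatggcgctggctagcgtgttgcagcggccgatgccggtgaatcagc
Psmb6: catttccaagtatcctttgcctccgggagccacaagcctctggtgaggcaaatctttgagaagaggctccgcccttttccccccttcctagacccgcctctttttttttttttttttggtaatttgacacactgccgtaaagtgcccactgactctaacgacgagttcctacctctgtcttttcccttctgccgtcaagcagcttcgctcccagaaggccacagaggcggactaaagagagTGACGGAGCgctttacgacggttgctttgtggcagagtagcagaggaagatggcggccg
Psmb8: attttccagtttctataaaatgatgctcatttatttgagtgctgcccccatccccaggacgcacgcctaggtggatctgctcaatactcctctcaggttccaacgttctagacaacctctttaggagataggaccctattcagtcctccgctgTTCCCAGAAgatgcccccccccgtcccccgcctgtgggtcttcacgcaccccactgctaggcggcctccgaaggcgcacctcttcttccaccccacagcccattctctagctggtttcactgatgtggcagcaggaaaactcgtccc
Psmb9: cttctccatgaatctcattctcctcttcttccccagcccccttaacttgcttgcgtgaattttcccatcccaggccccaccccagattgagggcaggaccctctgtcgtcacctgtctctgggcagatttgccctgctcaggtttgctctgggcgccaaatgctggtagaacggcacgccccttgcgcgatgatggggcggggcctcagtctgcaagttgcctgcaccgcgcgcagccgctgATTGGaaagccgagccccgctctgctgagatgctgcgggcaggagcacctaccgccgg
Psme1: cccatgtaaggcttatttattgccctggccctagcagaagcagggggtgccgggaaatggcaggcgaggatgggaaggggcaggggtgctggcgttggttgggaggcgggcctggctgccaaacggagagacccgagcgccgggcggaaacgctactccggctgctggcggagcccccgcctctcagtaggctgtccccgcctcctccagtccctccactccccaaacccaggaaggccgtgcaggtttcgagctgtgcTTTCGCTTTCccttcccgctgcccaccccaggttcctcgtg

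Of the 48 genes, 40 had such a window, and both strands were searched. Psmb7 was among the 8 without one, and the Psmb10 window held none of the sites searched. The antioxidant response element, the site bound by the stress regulators Nfe2l1 and Nfe2l2, was present in 6 of the 40 windows (15.0%) and in 12.47% of all 27025 windows. The interferon-stimulated response element was present in 5 of 40 against 3.49% of all windows, but in none of Psmb8, Psmb9 and Psmb10. The gamma-activated site was present in 3 of 40 against 8.47%. The CCAAT box was present in 14 of 40 (35.0%) against 37.9%, and 5 of the 7 alpha ring windows held one. The Psmb9 window shares 275 of its 300 bases (chr17:34187306-34187580) with that of Tap1, the class I peptide transporter subunit read from the opposite strand. A match is a description of letters and not evidence of binding.

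Nearly all proteasome genes were expressed in the MEF clones. At least 1 CPM in every clone was reached by 44 of 48 members (91.7%), against 52.2% of all genes listed. The exceptions were the tissue-restricted subunits and 2 of the immunoproteasome. Psma8, the alpha subunit of male germ cells, had 2, 1 and 3 counts in clones 1, 2 and 3, at or under the floor of 3 counts used here. Psmb11, the beta subunit of the thymic cortex, had 7, 5 and 6 counts. Psmb8 and Psmb9 are described with the catalytic subunits. Together the members took 0.392%, 0.417% and 0.424% of all counts (mean 0.411% ± 0.0169, SD, n = 3). The regulatory particle took 0.235% ± 0.0102 of the counts, the constitutive core 0.136% ± 0.00495, the activators with the inhibitor 0.0259% ± 0.00130 and the assembly chaperones 0.0133% ± 0.000857. These are shares of counts, which grow with transcript length.

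**Figure D1:**
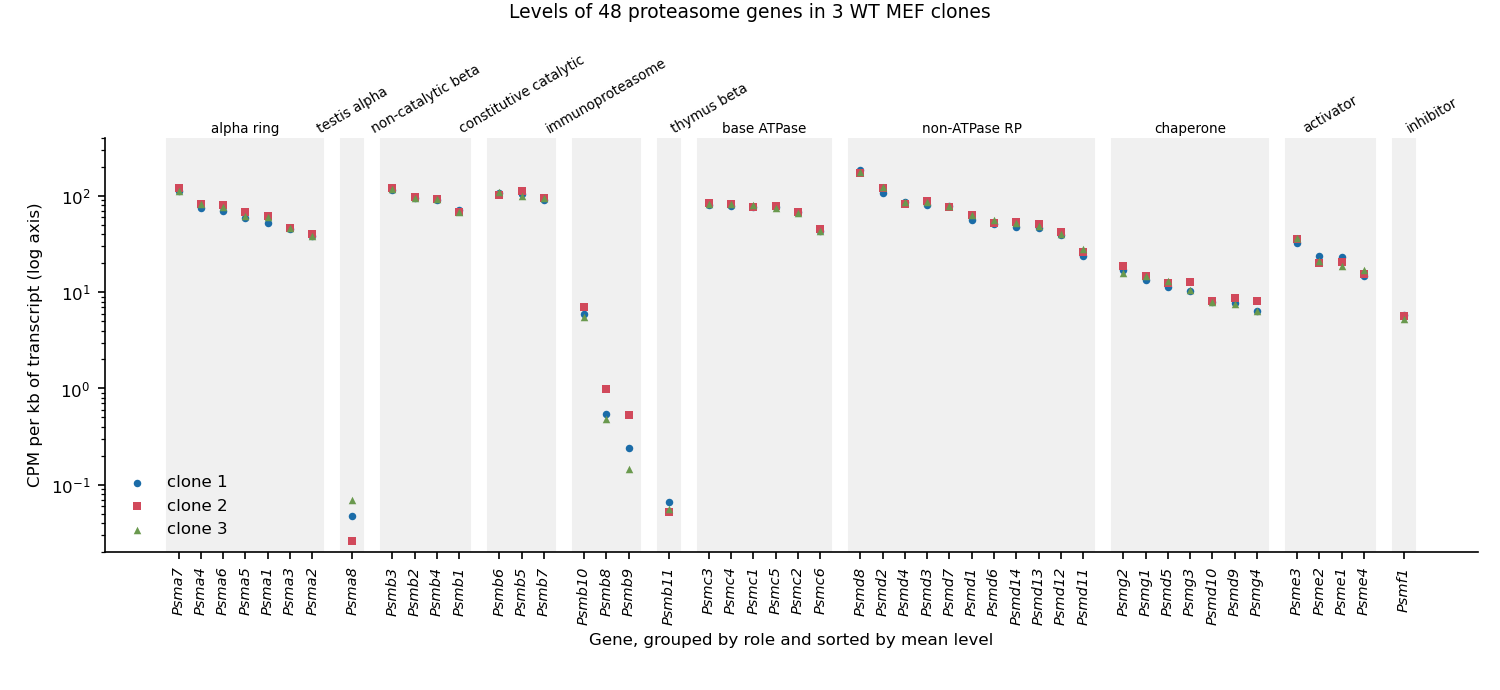
The plot of levels by role shows CPM per kb of transcript on a log axis for the 48 genes, with 1 point for each of the 3 clones. Core and regulatory particle genes sit between 26.1 and 180 CPM per kb on average, chaperones between 6.96 and 17.2, and Psmb8, Psmb9, Psma8 and Psmb11 below 1.

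The clones differed less in proteasome genes than in genes at large. Each gene that reached 10 counts in all clones was tested with a chi-square test of its counts against the scaled library sizes, with Benjamini-Hochberg adjustment over all 12218 such genes. That test compares libraries and sets counting error alone against their differences. It called 22 of 45 members (48.9%) and 62.5% of all genes tested. With a change of at least 1.5-fold from the lowest to the highest clone it called 1 member, Psmb8, against 18.6% of all genes. The coefficient of variation (CV) over the clones had a median of 5.00% over the members (quartiles 2.95% and 7.44%) and of 11.3% over all genes tested (quartiles 6.40% and 19.6%), and 41 of 45 members lay below the median of all genes. Among genes that reached 1000 counts in all clones, a limit chosen after seeing the data, 17 of 34 members and 83.6% of all genes were called, and the median CV was 3.55% and 7.83%.

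**Figure D2:**
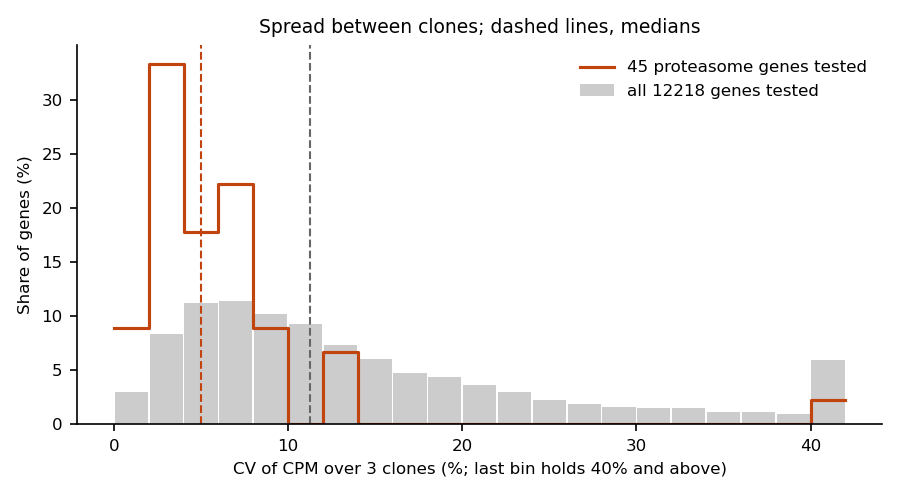
The histogram of the spread between clones shows the share of genes (%) in each range of the CV of CPM (%), grey bars for all 12218 genes tested and the red outline for the 45 proteasome genes tested. The median of the proteasome genes, 5.00%, lies left of the median of all genes, 11.3%.

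Clone 1 was most often the lowest. Of the 45 members tested, 27 were lowest in clone 1, against 39.4% of all genes, and 23 were highest in clone 2, against 35.2%. Of the 45 members, 16 were both called and lowest in clone 1, against 27.1% of all genes tested, and 11 were both called and highest in clone 2, against 23.5%, a share near that background. The median deviation of the members from their mean over the clones had the values −0.05, 0.04 and 0.00 for clones 1, 2 and 3 in log2(CPM + 1), while that of all genes lay between −0.01 and 0.01, and that of genes reaching 1000 counts was −0.02 in clone 1. Without clone 2 the members' value in clone 1 was −0.011, against −0.003 for all genes. With scaling by total counts the members' value in clone 3 was 0.03, and that of all genes was also 0.03. In clone 1 that scaling gave −0.07 for the members and −0.03 for all genes. Proliferation markers followed the same order of extremes, with all 6 lowest in clone 1 and highest in clone 2 and a summed level of 368, 723 and 609 CPM. Their part in the members' difference was not tested. Without clone 1, 5 of 45 members were called, against 31.7% of all genes.

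**Figure D3:**
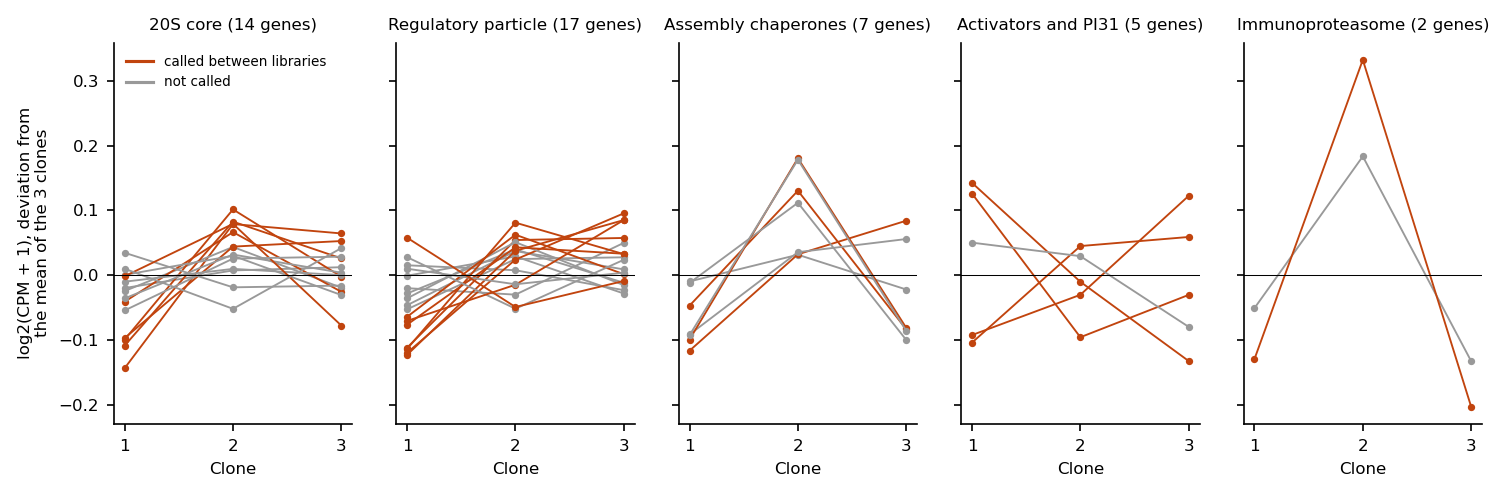
The plot of deviations by clone shows, for each tested gene of 5 groups, log2(CPM + 1) less its mean over the 3 clones, with lines that only join the points of 1 gene and colour for genes called between libraries. Most core and regulatory particle genes lie below 0 in clone 1, whereas both tested immunoproteasome genes peak in clone 2.

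The alpha ring genes, whose products gate the core, kept the same order of level per kb of transcript in all 3 clones. They ranged from 38.8 CPM per kb for Psma2 to 115 for Psma7, and 2 of 6 neighbouring pairs in that order overlapped between clones. All 7 were lowest in clone 1, against 39.4% of all genes. Of the 7, 5 were called, against 62.5% of all genes. Without clone 1 none of these was called, while the share of all genes called fell to 31.7%. Psma7 had 112, 121 and 113 CPM per kb in clones 1, 2 and 3 (115 ± 4.74, adjusted chi-square p = 0.0269). Psma2 had 38.1, 39.98 and 38.3 CPM per kb (38.8 ± 1.03, adjusted chi-square p = 0.205), so by transcript every clone of Psma7 lay above every clone of Psma2. Per kb of coding sequence that order turned, with a mean of 161 CPM for Psma2 and 142 for Psma7. By the union of exons it held, with 30.7 for Psma2 and 34.3 for Psma7. Psma1 was the lowest of the ring both by coding sequence (88.7) and by the union of exons (23.7). Psma1 had the widest difference of the ring, with 52.5, 61.4 and 60.8 CPM per kb, clone 1 being apart from the other clones. Its fold between clones was 1.17 (adjusted chi-square p = 1.22e-05). The counts of Psma5 and Psma4 are uncertain, with 72.5% and 50.7% of their 86-nt transcript stretches shared with other genes.

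None of the 4 beta subunits without a catalytic site was called, against 62.5% of all genes. By transcript they ranged from 69.2 ± 1.46 CPM per kb for Psmb1 to 119 ± 2.83 for Psmb3. Per kb of coding sequence Psmb1 was instead the highest of the 4 (169), and by the union of exons Psmb2 was (68.7). Psmb3 was also the widest of them, with 116, 122 and 119 CPM per kb in the 3 clones, a 1.05-fold difference, but 77.8% of its stretches are shared with other genes, so its count is uncertain. Psmb4 had the lowest CV of the members, 0.692%, at 91.3, 92.6 and 91.9 CPM per kb. Counting error alone would give a CV near 1.95% at its counts, so this rank says little of its expression. Over the 14 genes of the constitutive core, the highest mean level was 3.07 times the lowest, and 7 of 13 neighbours in the order overlapped between clones.

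The 3 constitutive catalytic genes stood close to each other per kb of transcript. Psmb5, the chymotrypsin-like subunit, had 105, 111 and 99.8 CPM per kb in clones 1, 2 and 3 (105 ± 5.80). Psmb6, the caspase-like subunit, had 107, 103 and 109 CPM per kb (106 ± 3.54). Psmb7, the trypsin-like subunit, had 90.6, 95.8 and 96.0 CPM per kb (94.2 ± 3.07). The values of Psmb5 and Psmb6 overlapped, while by transcript both lay above Psmb7 within each clone. Per kb of coding sequence the means were 119.7 CPM for Psmb5, 118.9 for Psmb6 and 131.5 for Psmb7, which turned that order, and by the union of exons they were 105, 45.3 and 31.9, much further apart. Of the 3, Psmb5 alone was called between libraries, against 62.5% of all genes. It differed 1.12-fold (adjusted chi-square p = 0.00233) and lost the call without clone 2 and without clone 3. Of the 86-nt stretches of the Psmb5 transcript, 83.0% also matched another gene's transcript, the pseudogene Gm3375 foremost, so its count is uncertain, as is that of Psmb7, with 23.0% shared with Nek6.

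The immunoproteasome genes were far below their constitutive counterparts in every clone. Psmb8, which takes the place of Psmb5, had 22, 36 and 20 counts in clones 1, 2 and 3, against 2350, 2257 and 2265 for Psmb5. Per kb, Psmb8 had 0.544, 0.981 and 0.486 CPM. Psmb5 was thus 193, 114 and 205 times higher, and the log2 ratio of Psmb8 to Psmb5 was −7.37 ± 0.47 (SD, n = 3). Psmb8 made up 0.514% of the pair per kb in clone 1 (95% Wilson interval 0.340% to 0.778%), 0.873% in clone 2 (0.631% to 1.21%) and 0.485% in clone 3 (0.314% to 0.749%). The 3 intervals overlap, and they cover counting error only.

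Psmb9, which takes the place of Psmb6, was the lowest of the 3, with 8, 16 and 5 counts against 2123, 1845 and 2207 for Psmb6. Its level was 0.238, 0.525 and 0.146 CPM per kb. Psmb6 was 450, 195 and 748 times higher, a log2 ratio of −8.66 ± 0.98. Its share of the pair was highest in clone 2, at 0.509% (0.313% to 0.826%), and lowest in clone 3, at 0.134% (0.0570% to 0.312%). Psmb9 fell short of 10 counts in clones 1 and 3 and was outside the library test. Of its transcript's stretches, 10.02% are shared with Tap1, whose exons it overlaps by 212 bp.

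Psmb10, which takes the place of Psmb7, was the only immunoproteasome gene above 1 CPM per kb. It had 193, 210 and 184 counts against 2612, 2507 and 2814 for Psmb7, and 5.93, 7.10 and 5.56 CPM per kb. Psmb7 was 15.3, 13.5 and 17.3 times higher, a log2 ratio of −3.93 ± 0.18. Its share of the pair was 6.14%, 6.90% and 5.47%, with overlapping intervals. In each of the 3 pairs the immunoproteasome gene was lower in 3 of 3 clones, and the exact two-sided sign-flip permutation test over clones gave p = 0.25, the smallest that 3 clones allow.

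**Figure D4:**
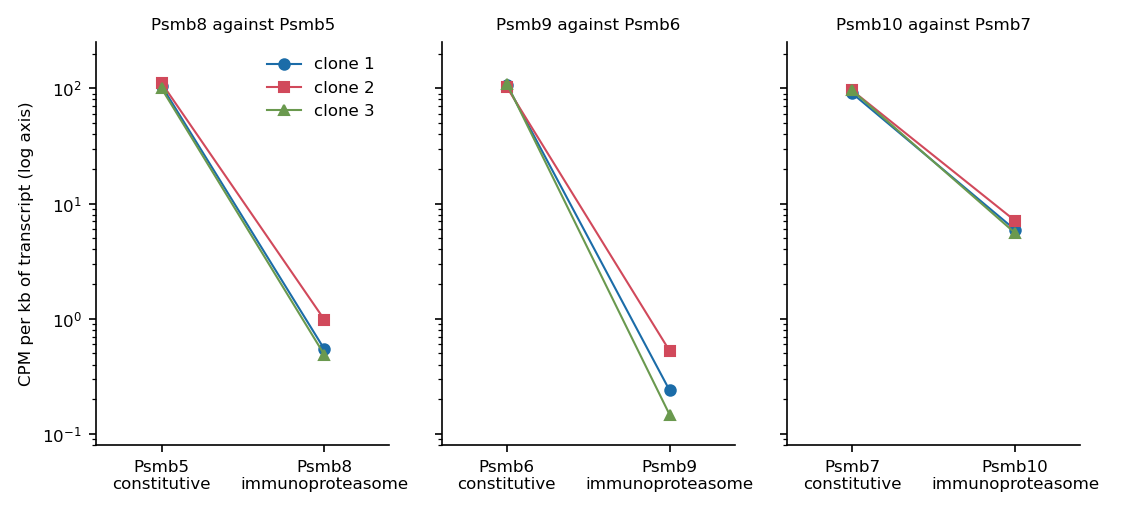
The plot of catalytic pairs shows CPM per kb of transcript on a log axis for each constitutive gene and its immunoproteasome counterpart, with lines joining the values of 1 clone. The constitutive genes lie near 100 in all clones, Psmb10 between 5.56 and 7.10, Psmb8 between 0.486 and 0.981 and Psmb9 between 0.146 and 0.525, each with clone 2 at the top.

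Summed per kb, the immunoproteasome genes made up 2.17%, 2.70% and 1.99% of the 6 catalytic genes in clones 1, 2 and 3 (2.29% ± 0.373). Psmb10 alone gave 88.3%, 82.5% and 89.8% of that immunoproteasome sum. All 3 genes were highest in clone 2. Psmb8 was called between libraries with a 2.02-fold difference (adjusted chi-square p = 0.0255), but not without clone 2 (1.12-fold, adjusted chi-square p = 0.805) or without clone 3 (adjusted chi-square p = 0.0510). Psmb10 differed 1.28-fold and was not called (adjusted chi-square p = 0.0600, and 0.0472 without clone 1). Without the low-count filter, Psmb9 differed 3.58-fold (adjusted chi-square p = 0.0333).

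Clone 2 also stood apart in macrophage markers. All 9 listed markers were highest there, with a summed level of 360, 1683 and 294 CPM in clones 1, 2 and 3. The receptor gene Csf1r had 1165, 5001 and 1209 counts. The 6 lymphocyte markers had at most 3 counts in any clone, and 3 of them were at 0 in all. Fibroblast markers summed to 56794, 47171 and 45748 CPM, most of it collagen, while Dcn and Lum were low, at 7.73 and 2.03 CPM. The part of macrophage RNA in the level of Psmb8, Psmb9 and Psmb10 was not tested. In bulk RNA, fewer cells of a type and less RNA per cell cannot be told apart. Without clone 2 the log2 ratios were −7.64 for Psmb8, −9.18 for Psmb9 and −4.02 for Psmb10.

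Among the regulatory particle genes, none of the 6 base ATPases was called, against 62.5% of all genes. Psmc3 was the highest, with 79.8, 84.6 and 83.0 CPM per kb in the 3 clones, and also the widest, at 1.06-fold (adjusted chi-square p = 0.0677, and 0.0288 without clone 3). Psmc6 was the lowest, with 43.0, 45.1 and 43.5 CPM per kb. The values of Psmc3 and Psmc6 did not overlap, and by transcript the highest mean was 1.88 times the lowest. In the order of the 6 genes, 3 of 5 neighbouring pairs overlapped between clones. By the union of exons the range was 3.07-fold, with Psmc5 highest and Psmc2 lowest, and by coding sequence 1.33-fold, with Psmc3 highest and Psmc5 lowest. The count of Psmc1 is uncertain, with 41.4% of its stretches shared with other genes.

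The 11 other regulatory particle subunits among the 48 genes taken by symbol spread 6.92-fold by transcript. Of these 8 were called, a share near the 62.5% of all genes. Without clone 1 none of the 8 was called, while the share of all genes called fell to 31.7%. Psmd8, a lid subunit, was the highest member per kb of transcript, with 188, 174 and 179 CPM per kb (180 ± 6.81). By the union of exons Psmb5 (105) was above it (90.9). Unlike most members it was highest in clone 1 (1.08-fold, adjusted chi-square p = 0.000207). Psmd11, also of the lid, was the lowest by transcript, with 23.9, 26.5 and 27.8 CPM per kb (26.1 ± 1.98), and the widest, at 1.16-fold (adjusted chi-square p = 6.21e-05). Every clone of Psmd11 lay below every clone of Psmd8. Of the Psmd11 stretches, 40.1% are shared with other genes, and of those of Psmd2 47.8%. Psmd2, a scaffold of the base, followed Psmd8 with 118 ± 8.78 CPM per kb. Psmd14, the deubiquitinase, had 51.1 ± 3.58 and its lid partner Psmd7 78.3 ± 0.680, the former lower in 3 of 3 clones. The median level of the 17 regulatory particle genes was 0.934, 0.881 and 0.866 times that of the 14 core genes in clones 1, 2 and 3.

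**Figure D5:**
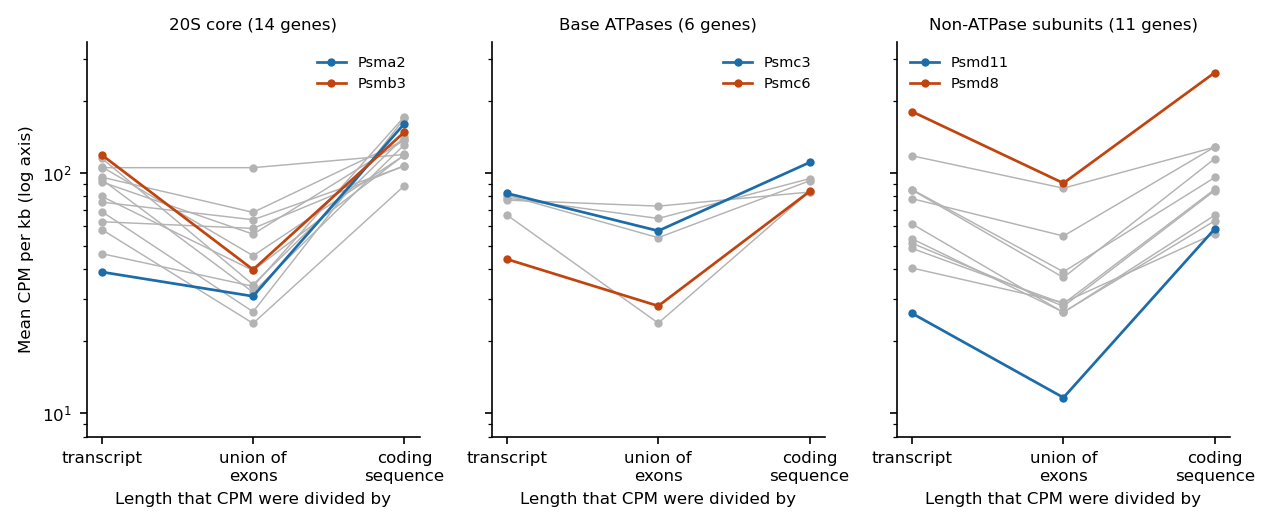
The plot of length definitions shows the mean CPM per kb over the 3 clones on a log axis, for 3 groups of genes, with CPM divided by the length of the transcript, of the union of annotated exons or of the coding sequence. Psmd8 is highest of its group under all 3 lengths, whereas the range of the 20S core, 3.07-fold by transcript, narrows to 1.94-fold by coding sequence.

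The 4 activators were all called between libraries, against 62.5% of all genes, but not with the same clone highest. Psme1 and Psme2 form the interferon-inducible PA28 ring, and Psme3 forms the nuclear PA28 gamma ring. Psme1 had 23.0, 20.6 and 18.9 CPM per kb (20.8 ± 2.08, adjusted chi-square p = 0.00604), and Psme2 had 23.6, 20.1 and 21.03 (21.5 ± 1.81, adjusted chi-square p = 0.0485). Both were highest in clone 1, not in clone 2. Psme3 had 32.2, 35.8 and 36.1 CPM per kb (34.7 ± 2.16) and Psme4, which encodes PA200, had 14.7, 15.3 and 17.0 (15.7 ± 1.23), and both were lowest in clone 1 and highest in clone 3. The calls of Psme1, Psme2 and Psme3 were lost without clone 1, those of Psme1 and Psme4 without clone 3 and that of Psme2 without clone 2. Psme3 was 1.401, 1.74 and 1.92 times Psme1 per kb, so that its clones did not overlap with those of Psme1. The size of that ratio depended on the length used, with 1.67 by transcript, 2.99 by the union of exons and 3.91 by coding sequence. Psme2 is uncertain, since 77.7% of its stretches match another gene, Psme2b foremost. Psmf1, an inhibitor of the core, had 5.78, 5.69 and 5.26 CPM per kb and was not called.

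The 7 assembly chaperones, which help build the core (Psmg1 to Psmg4) and the base (Psmd5, Psmd9, Psmd10), were lower per kb of transcript than every core and regulatory particle gene. By transcript they ranged from 6.96 CPM per kb for Psmg4 to 17.2 for Psmg2. Of the 7, 3 were called, against 62.5% of all genes. Psmg4 had 6.38, 8.07 and 6.42 CPM per kb from 88, 101 and 90 counts, and its 1.26-fold difference was not called (adjusted chi-square p = 0.230). Psmg3 had 10.4, 12.9 and 10.5 CPM per kb, a 1.24-fold difference that was called (adjusted chi-square p = 0.0479), though not without clone 1 (1.22-fold, adjusted chi-square p = 0.0777) or without clone 2 (1.02-fold). Both were highest in clone 2. With Psmb8, Psmb10 and Psme1, these were the 5 with the widest difference between clones among the 45 members tested. The count of Psmg3 is uncertain, with 19.7% of its stretches shared with another gene.

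Genes that work with the proteasome were compared as lists. The share of all genes called, 62.5%, is the background for each list. Of 11 partners 8 were called, a share near it, and Usp14, a deubiquitinase that docks on the regulatory particle, had 2114, 2695 and 2940 counts (1.405-fold), lowest in clone 1. Pomp, the core maturation factor, had 41.7, 41.96 and 41.3 CPM per kb and was not called. Of the ubiquitin and E1 genes, the polyubiquitin gene Ubb (126 ± 13.3 CPM per kb) was called and highest in clone 1, and Uba1, the main ubiquitin-activating enzyme (134 ± 4.56 CPM per kb), was called and highest in clone 3. Of 7 regulators of proteasome genes 5 were called. Nfe2l1 had 14320, 9862 and 11987 counts (211 ± 30.6 CPM per kb), highest in clone 1, and Nfe2l2 had 26.3 ± 2.33 CPM per kb, highest in clone 2.

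The class I and interferon list, whose genes serve the same pathway as the immunoproteasome, had 11 of 13 called, against 62.5% of all genes, and 9 of 13 highest in clone 2, against 35.2%. H2-K1 had 871, 1326 and 793 counts, and H2-D1 had 877, 1187 and 683. Irf8, a transcription factor of myeloid cells, had 26, 91 and 33. These were highest in clone 2, as were the immunoproteasome genes. The other 4 genes of the list were highest in clone 1, and 3 of these were called. Those 3 were Tap2 (539, 417 and 331 counts), B2m (11549, 10117 and 10596) and Ifngr2 (2852, 2186 and 2675). Tap1, also among these 4, had 473, 372 and 462 counts and was not called (adjusted chi-square p = 0.151). Tap1 was 27.1, 10.6 and 42.3 times the level of Psmb9 per kb of transcript, although the windows around their starts overlap. These ratios rest on 8, 16 and 5 counts of Psmb9. The ratio of the mean levels was 20.0 by transcript, 29.3 by the union of exons and 13.2 by coding sequence.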

How the data were processed

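PolyA-selected RNA of 3 WT MEF clones was sequenced, 1 library per clone. The values deposited by the authors are raw counts per gene, not normalized. Per the methods, 86-nt reads were aligned allowing 2 mismatches and several positions per read, and assigned to genes with HTSeq. The submitters' processing notes name FastQC, SAMtools 0.1.16, TopHat2 2.0.0 and Bowtie 0.12.7, with a build (mm9) that differs from the one in the methods. The HTSeq version, the annotation and the strand setting are not given in the sources used here, so reads of overlapping genes and pseudogenes could be split in unknown ways.

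CPM used TMM scaling (edgeR 4.0.16, R 4.3.3). Lengths, gene overlaps and shared 86-nt stretches (at most 2 mismatches) came from GENCODE M21, in which all 48 members and 21722 of the 21782 genes were matched by symbol. With 1 condition and 1 library per clone, a model with groups could not be fitted. Libraries were compared instead with a Pearson chi-square test (2 degrees of freedom) on all genes that reached 10 counts in each library, with Benjamini-Hochberg adjustment and a threshold of 0.05 (scipy 1.17.1). P-values measure only differences between these libraries, which may be technical. Pairs were compared with an exact sign-flip permutation test and 95% Wilson intervals. The chi-square test was tried on simulated counts with set changes and counting error alone. That trial says nothing of spread beyond counting error in these libraries. Named genes were the catalytic, activator, inhibitor and tissue-restricted members, the highest, lowest and widest gene of each other class, and the 5 widest members, and Psmb4, Psmd2, Psmd7 and Psmd14 were added after their values were seen. Members and lists were chosen with earlier results of these data known. Alternatives were DESeq2 1.42.0 size factors, total counts, other lengths, filters, pseudocount and statistic, and leaving out each clone. One gene of the ubiquitin list is not reported here, and no count over that list is given.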

Additional observations from a re-analysis of the deposited data

How the results depend on the processing

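No pair ratio changed sign under another length or without any 1 clone. Other lengths moved levels between genes: by the union of exons and by coding sequence, respectively, the core spread 4.47-fold and 1.96-fold (mean of the clones' own folds), the median level of core genes was 39.5 and 134 CPM per kb, that of regulatory particle genes 36.7 and 86.9, and the immunoproteasome share of the catalytic genes 2.76% and 3.10%. The regulatory particle median stayed below the core median under all 3 lengths. The number of members called was 5, 14 and 17 without clones 1, 2 and 3, against 22 with all. The share of all genes called fell too, to 31.7%, 45.3% and 53.0%, against 62.5% with all clones. With 1 clone left out, the median CV of the members was 2.86% to 5.26%, and that of all genes 6.91% to 11.5%. Scaling by total counts called 26 members, gaining Psmb6, Psmb7, Psmc1, Psmc3, Psmc4 and Psmd4 and losing Psmd9 and Psme2. It called 63.9% of all genes. DESeq2 size factors changed the call of none of the 45. No filter on low counts called 20 of 48 (Psmd9, Psme2 and Psmg3 lost, Psmb9 gained), against 48.1% of all genes. The likelihood-ratio statistic called 20 of 45 (Psmd9 and Psmg3 lost), against 62.5% of all genes. A minimum of 50 counts called 21 of 44, against 66.7% of all genes. Leaving out clones uses fewer libraries, and the cause of the other changes was not tested. Counts of 5 to 36 limit the precision of Psmb8 and Psmb9. No paired analysis was possible because all libraries belong to 1 group.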

Other observations

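The COP9 signalosome is a complex whose subunits are related to those of the proteasome lid, and it removes Nedd8 from cullins. Of its 9 genes 3 were called between libraries, against 62.5% of all genes. The median CV of the 9 genes was 3.47%, beside 3.29% for the constitutive core, and the difference was not tested. Gps1 had 65.2, 66.6 and 64.8 CPM per kb in clones 1, 2 and 3 and was not called. Cops2 had 22.2, 22.8 and 27.3 CPM per kb and was called (1.23-fold), highest in clone 3.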
